A study of Mus musculus with 5 samples.

Results

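The core of the Hippo pathway was followed as 10 genes out of the 21801 in the table, chosen by name: the coactivators Yap1 and Wwtr1 (which encodes TAZ), the DNA-binding partners Tead1, Tead2, Tead3 and Tead4, the kinases Lats1 and Lats2, and the upstream kinases Stk3 and Stk4 (which encode MST2 and MST1). All 10 were found, each as 1 row, and none was removed by a filter. The cells were mouse neuroepithelial cells (NECs), the dividing epithelial progenitors of the early neural tube, described in the series as purified and placed in the developing neocortex. The labels give 1 group of 5 replicates of total RNA, with no treatment, genotype, strain or age stated, and the purification is not described in the sources used here. With 1 group, the comparisons the design allows are between genes within a library and between each gene and a fixed level. No label says whether the replicates are separate animals or cultures. The p-values therefore reflect how these 5 libraries vary, and that variation may be technical.

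In the Hippo pathway, MST kinases with the scaffold Sav1 activate the LATS kinases, which work with MOB1 adaptors. LATS kinases phosphorylate YAP and TAZ, which are then held in the cytoplasm or degraded. Unphosphorylated YAP and TAZ enter the nucleus, where they have no DNA-binding domain of their own and act through TEAD factors. In the embryonic nervous system the pathway is known as a brake on progenitor expansion, and Tead2 is known as a TEAD gene of early embryonic and neural progenitor tissue.

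Levels are in FPKM, that is, read fragments scaled to a kilobase of transcript and to 1000000 mapped reads. The scaling is meant to let genes of different length be compared. The cDNA was made from poly-dT primers, and whether reads covered the transcripts evenly was not checked, which limits comparisons between genes. The 5 libraries had 16275 to 18456 genes above 0, and the smallest value steps imply totals of 20.6 to 28.3 M reads (1 M = 1000000), at which a 2000-base transcript at 1 FPKM collected 37.1 to 51.0 reads. Of 12 neural progenitor markers 11 were called above 1 FPKM and none below, where 52.3% of all 19706 genes tested were called above and 41.4% below. Among markers of other cells, 8 of 12 mesenchyme and meninges markers, 6 of 7 surface ectoderm markers, 3 of 6 neural crest markers and 3 of 6 neuronal markers were called above 1 FPKM, the last 2 lists near the share of all genes, against 1 of 6 for endothelium and none of 6 for blood and microglia, of which Aif1 was listed at 0 in all 5 libraries. Hbb-y of the blood list averaged 1.79 FPKM and was called neither way. Of the neural crest list, Tfap2b (mean 13.3 FPKM), Ets1 (11.3) and Erbb3 (6.05) were called above 1 FPKM. Sox10 (0.222) and Foxd3, listed at 0 in 4 of 5 libraries, were called below, and Tfap2a (0.838) was called neither way. The summed level of the mesenchyme list was 42.0, 68.6, 145, 119.7 and 120.4 FPKM in replicates 1 to 5, that of the surface ectoderm list 98.5, 150.2, 138, 102 and 103, and that of the neural crest list 17.0, 29.2, 44.4, 32.3 and 35.7. The neuronal list summed to 102, 109, 63.0, 72.3 and 73.8 FPKM, and the neural progenitor list to 341, 338, 290.3, 337 and 331. In bulk samples such as these, fewer cells of a type and less RNA per cell cannot be told apart.

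Whether a read can be placed on 1 family member bears on every comparison between them, so the transcripts of the GENCODE M21 annotation (build mm10) were compared first. No sequence of 75 bases, the length of the reads, was shared by any 2 members of a family. The longest identical stretch was 59 bases, in the coding sequences of Tead3 and Tead4, followed by 35 bases between Tead2 and Tead3, while Lats1 and Lats2 shared at most 22 and Stk3 and Stk4 at most 23. These coding stretches are shown because they are the closest that the paralogs come to each other.
Tead3 and Tead4: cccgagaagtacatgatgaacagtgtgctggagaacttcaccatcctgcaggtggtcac
Tead2 and Tead3: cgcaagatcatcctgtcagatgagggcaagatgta
Stk3 and Stk4: tggattgttatggagtactgtgg
Lats1 and Lats2: tgtactttgtgatggactacat
Outside the families, 40.5% of the distinct 75-base words of Lats2 also occur in Gm49361, an annotated gene on the same strand that covers 42.4% of the exonic bases of Lats2, so the level of Lats2 is uncertain where the authors' counting split or dropped such reads. In Yap1 0.448% of the words occur in Gm20416, which lies across 1.25% of its exonic bases on the opposite strand. Exons of Cd37 on the opposite strand cover 0.272% of the exonic bases of Tead2. Wwtr1, Tead1, Tead3, Tead4, Lats1 and Stk4 had no shared word and no overlapping exon.

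Yap1, the coactivator, was among the more abundant transcripts and its paralog Wwtr1 was near 1 FPKM. Yap1 (ENSMUSG00000053110, chromosome 9, 7931999 to 8004596, minus strand, mm10) stood at 30.0, 32.8, 36.3, 38.3 and 37.1 FPKM in replicates 1 to 5, a mean of 34.9 ± 3.44 (SD, n = 5) that exceeded that of 84.5% of the 19706 genes tested, those not at 0 throughout. Replicate 1 was the lowest and replicate 4 the highest. On the log2(FPKM + 1) scale it exceeded the level of 1 FPKM by 4.16 (SE 0.06), with a Benjamini-Hochberg adjusted p = 1.95e-10 by limma's moderated test. Wwtr1 (ENSMUSG00000027803, chromosome 3, 57455649 to 57575910, minus strand) stood at 1.02, 0.900, 1.17, 1.30 and 1.00 FPKM, a mean of 1.08 ± 0.158 (n = 5). The libraries lay on either side of 1 FPKM, and the gene was called neither above nor below it (log2 difference 0.05, SE 0.07, limma adjusted p = 0.469). It was called above once each library was rescaled to a sum of 1000000 FPKM (log2 difference 0.23), a change that raised all values.

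The gap between the paralogs was much larger than its spread between libraries. Yap1 exceeded Wwtr1 29.4- to 37.1-fold in FPKM, with a difference of 4.11 ± 0.11 on the log2(FPKM + 1) scale in 5 of 5 libraries. Yap1 made up 96.7%, 97.3%, 96.9%, 96.7% and 97.4% of the summed FPKM of the pair. Exact permutation of the signs of the 5 differences (two-sided) gave p = 0.0625, adjusted 0.0703 over the 9 pairs of family members. With 5 libraries 0.0625 is the smallest p possible, so no pair could pass 0.05.

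**Figure D1:**
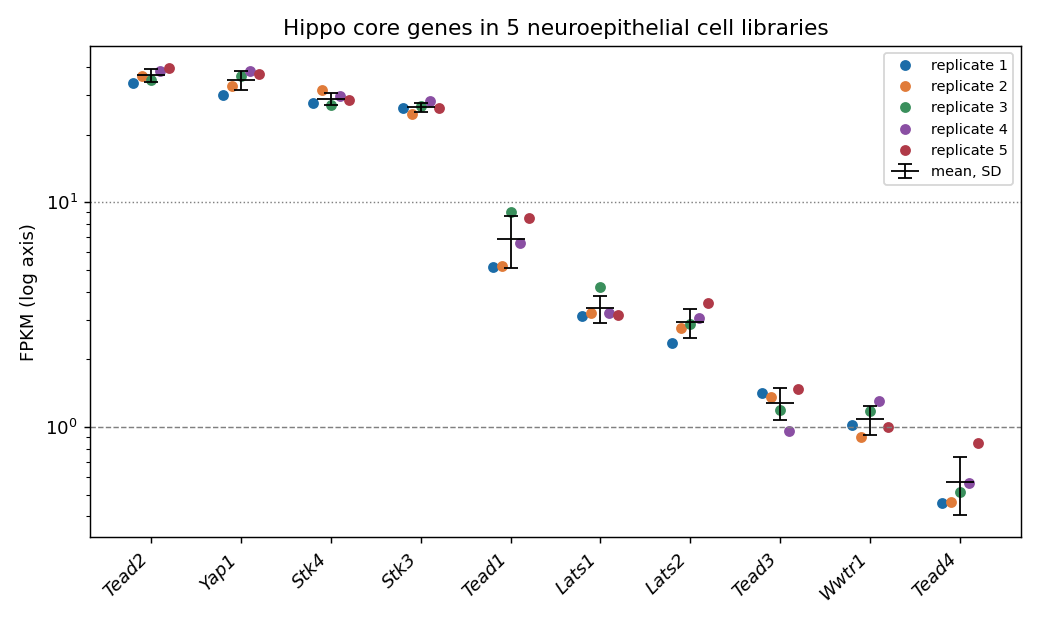
FPKM on a log axis of the 10 Hippo core genes, ordered by mean, with 1 coloured point per library and the mean and SD over 5 libraries in black; dashed and dotted lines mark 1 and 10 FPKM. Tead2, Yap1, Stk4 and Stk3 form an upper group from 24.7 to 39.4 FPKM, and Tead3, Wwtr1 and Tead4 lie around or under 1 FPKM.

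The TEAD family was dominated by Tead2. Tead2 (ENSMUSG00000030796, chromosome 7, 45215753 to 45233644, plus strand) stood at 34.1, 36.6, 34.9, 38.5 and 39.4 FPKM, a mean of 36.7 ± 2.28 (n = 5), the highest of the 10 genes. Tead1 (ENSMUSG00000055320, chromosome 7, 112679318 to 112906807, plus strand) stood at 5.16, 5.19, 9.05, 6.59 and 8.46 FPKM, a mean of 6.89 ± 1.81. Its lowest libraries were replicates 1 and 2 and its highest replicates 3 and 5, and no library of Tead1 reached the range of Tead2. Tead3 (ENSMUSG00000002249, chromosome 17, 28331671 to 28350817, minus strand) stood at 1.41, 1.36, 1.19, 0.956 and 1.47 FPKM, a mean of 1.28 ± 0.208. Tead4 (ENSMUSG00000030353, chromosome 6, 128224288 to 128300823, minus strand), which is known for its role in the trophectoderm of the early embryo, stood at 0.458, 0.462, 0.512, 0.560 and 0.851 FPKM, a mean of 0.568 ± 0.163. Replicate 5 was high for Tead4 and the other 4 libraries lay close together.

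Tead2 held 76.5% to 83.9% of the summed TEAD FPKM, with a mean share of 80.9% ± 3.22, and Tead1 held 11.9% to 19.8%, with a mean of 15.1% ± 3.28. The shares of Tead3 and Tead4 were 2.83% ± 0.530 and 1.24% ± 0.260. Tead2 exceeded Tead1 3.86- to 7.05-fold in FPKM, and Tead1 minus Tead2 was -2.28 ± 0.32 on the log2(FPKM + 1) scale. Each of the 6 TEAD pairs kept 1 direction in 5 of 5 libraries, down to Tead3 minus Tead4 at 0.54 ± 0.17, and each reached the smallest exact p of 0.0625 (adjusted 0.0703). The summed TEAD level was 45.4 ± 3.41 FPKM and that of Yap1 and Wwtr1 together 36.0 ± 3.54, a ratio of 1.27 ± 0.0653 that ran from 1.18 in replicate 4 to 1.32 in replicate 1.

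Against 1 FPKM, Tead2 (log2 difference 4.23, SE 0.05, limma adjusted p = 3.9e-11) and Tead1 (1.95, SE 0.13, adjusted p = 1.63e-06) were called above and Tead4 below (-0.36, SE 0.06, adjusted p = 0.000817). Tead3 was called neither way at a difference of 0.18 (SE 0.08, unadjusted p = 0.0483, limma adjusted p = 0.0515). Without replicate 4, its lowest library, Tead3 was called above (log2 difference 0.24). It was also called above after rescaling to a common sum (0.38), with a mean of at least 0.1 FPKM required, and with either robust variance or no variance trend in limma (0.18 each).

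**Figure D2:**
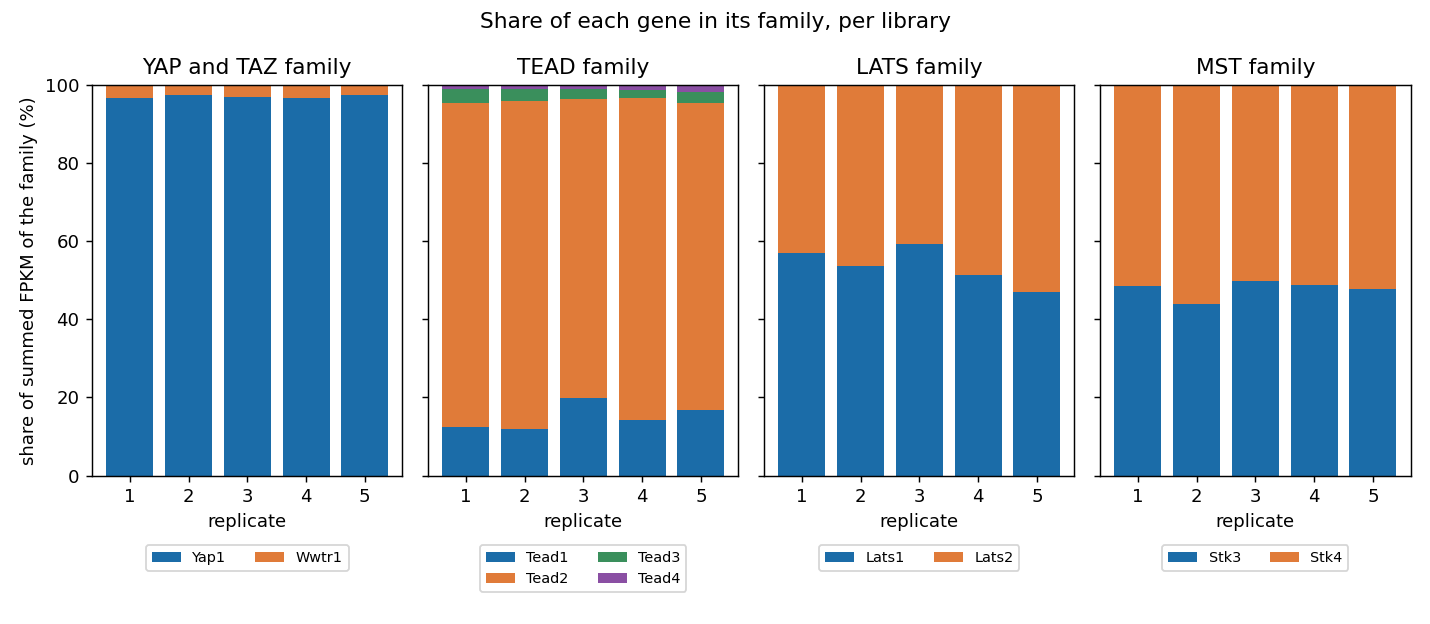
Share of each gene in the summed FPKM of its family, in percent, as stacked bars for replicates 1 to 5 in 4 families. Yap1 and Tead2 take most of their families in every library, while Lats1 and Lats2, and Stk3 and Stk4, divide theirs nearly evenly. The level of Lats2 is uncertain because of the sequence it shares with Gm49361.

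By the listed FPKM, transcripts of the MST kinases were several times more abundant than those of the LATS kinases, and within each pair the levels were close. The level of Lats2 is uncertain because of the sequence it shares with Gm49361. Stk4 (ENSMUSG00000018209, chromosome 2, 164070322 to 164155524, plus strand) stood at 27.7, 31.4, 27.1, 29.8 and 28.5 FPKM, a mean of 28.9 ± 1.73 (n = 5). Stk3 (ENSMUSG00000022329, chromosome 15, 34875496 to 35178921, minus strand) stood at 26.1, 24.7, 26.8, 28.3 and 26.1 FPKM, a mean of 26.4 ± 1.31. Their ranges overlapped, although Stk4 was higher in each library. Lats1 (ENSMUSG00000040021, chromosome 10, 7681214 to 7716460, plus strand) stood at 3.11, 3.21, 4.19, 3.20 and 3.13 FPKM, a mean of 3.37 ± 0.460. For Lats2 (ENSMUSG00000021959, chromosome 14, 57689662 to 57758388, minus strand) the values were 2.36, 2.77, 2.88, 3.05 and 3.54 FPKM, a mean of 2.92 ± 0.431. Lats1 was high in replicate 3 alone, Lats2 was lowest in replicate 1 and highest in replicate 5, and the ranges overlapped.

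Stk3 minus Stk4 was -0.13 ± 0.12 on the log2(FPKM + 1) scale, from -0.34 in 1 library to -0.02 in another, with Stk4 higher in 5 of 5 (exact permutation p = 0.0625, adjusted 0.0703). Lats1 minus Lats2 was 0.16 ± 0.21, from -0.14 to 0.42, with Lats1 higher in 4 of 5 libraries (exact p = 0.188, adjusted 0.188). The share of Stk3 in its pair was 47.8% ± 2.23 and that of Lats1 53.6% ± 4.81. Together the MST kinase transcripts stood at 55.3 ± 1.78 FPKM and the LATS kinase transcripts at 6.29 ± 0.619, a ratio of 7.63 to 9.83 over the libraries. The LATS sum, the ratio and the share of Lats1 all carry the uncertainty of Lats2. All 4 kinase genes lay above 1 FPKM, by 3.78 (SE 0.04, limma adjusted p = 5.9e-11) for Stk3, 3.90 (SE 0.05, adjusted p = 6.36e-11) for Stk4, 1.12 (SE 0.09, adjusted p = 4.84e-06) for Lats1 and 0.96 (SE 0.09, adjusted p = 1.72e-05) for Lats2.

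In all, 7 of the 10 members lay above 1 FPKM, against a background of 52.3% of the 19706 genes tested, 1 (Tead4) lay below, against 41.4%, and Wwtr1 and Tead3 were called neither way. Against 10 FPKM, Tead2, Yap1, Stk4 and Stk3 were called above, where the background was 27.7%, and the other 6 below, where it was 68.4%. Tead1 was no longer called below 10 FPKM after rescaling to a common sum (log2 difference -0.22). The median of the members' mean levels was 5.13 FPKM and that of all genes tested 1.79. In the order of the 10 levels, Tead2, Yap1, Stk4 and Stk3 followed each other with overlapping ranges. Tead2 exceeded Yap1 by 0.07 ± 0.10 on the log2(FPKM + 1) scale in 4 of 5 libraries, less than the spread between libraries. A gap of 1.83 ± 0.31 separated Stk3 from Tead1, the next gene, with no overlap. Tead1 lay above Lats1 by 0.83 ± 0.27 and Lats2 above Tead3 by 0.78 ± 0.22, again without overlap, whereas the ranges of Tead3 and Wwtr1 overlapped (0.13 ± 0.24, Tead3 higher in 4 of 5).

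The members differed in how far the libraries spread. Stk3, Stk4 and Tead2 varied least, with coefficients of variation of 4.96%, 5.99% and 6.22%, and Yap1 followed at 9.84%. Tead4 had the largest, 28.7%, at a mean under 1 FPKM, and its SD on the log2(FPKM + 1) scale was 0.14. Tead1, at 26.3%, had an SD of 0.33 on the log2(FPKM + 1) scale, larger than that of 90.1% of the 10983 genes averaging 1 FPKM or more, whose median SD was 0.16. The deviation of Tead1 from its own mean was -0.33, -0.32, 0.38, -0.03 and 0.29 on that scale in replicates 1 to 5. The median deviation of the mesenchyme list was -0.74, -0.37, 0.46, 0.23 and 0.33, so replicates 1 and 2 were low and replicates 3 and 5 high for both. In replicate 4 the mesenchyme list was high while Tead1 was close to its mean. Other marker lists were also low in replicate 1: the median deviation was -0.59, -0.04, 0.50, -0.06 and 0.18 for neural crest and -0.42, -0.25, 0.04, 0.37 and 0.37 for endothelium. For surface ectoderm it was -0.26, 0.35, 0.24, -0.14 and -0.15. It was high in replicates 1 and 2 and low in replicate 3 for neurons (0.55, 0.40, -0.32, -0.17 and -0.11) and neural progenitors (0.18, 0.10, -0.22, -0.07 and -0.02). These medians cover only genes averaging 1 FPKM or more. Such genes were 11 of 12 for mesenchyme, 6 of 7 for surface ectoderm and 3 of 6 for neural crest. They were 4 of 6 for endothelium, 3 of 6 for neurons and 11 of 12 for neural progenitors. Yap1 deviated by -0.21, -0.08, 0.06, 0.14 and 0.09, also low in replicates 1 and 2, and Tead2 by -0.10, -0.00, -0.07, 0.07 and 0.10. Over genes above 1 FPKM in every library, the median log2 deviation was -0.07, 0.01, 0.005, 0.04 and 0.01 in replicates 1 to 5. The members' deviations were not corrected for these shifts. The part of the shifts and of the listed cell types in the members' differences was not tested.

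**Figure D3:**
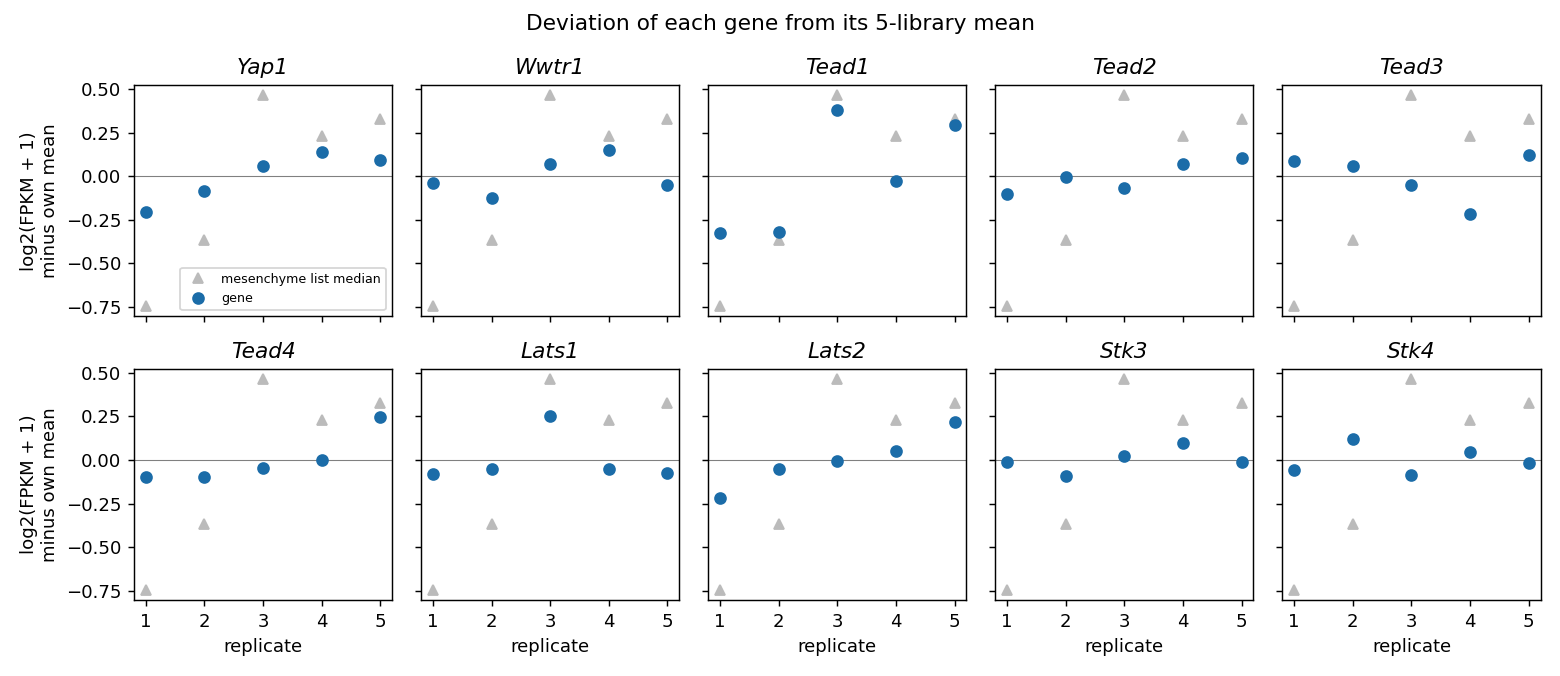
Deviation of each of the 10 genes from its own 5-library mean of log2(FPKM + 1), as blue points for replicates 1 to 5. Grey triangles in every panel are the median deviation of the mesenchyme list, over its genes averaging 1 FPKM or more. Tead1 spans -0.33 to 0.38 and the mesenchyme list -0.74 to 0.46, while Stk3 stays within -0.09 and 0.10.

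The genes whose library pattern was most like that of a member were taken by the Euclidean distance between the deviations of log2(FPKM + 1) over the 5 libraries, among genes averaging 1 FPKM or more. For Yap1 they were Gnl3 (distance 0.02), Nol11 (0.03) and Bzw2 (0.03), and the nearest other member was Lats2, in place 964 of 10982. For Wwtr1 they were Gm6563 (0.01), Snrpe (0.03) and Socs4 (0.04), with Stk3 in place 52. For Tead2 they were Fkbpl (0.03), Ptplad2 (0.03) and Ada (0.03), with Stk4 in place 1473. With 5 libraries and 10982 genes compared, near matches of this kind only describe these libraries.

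The remaining genes of the pathway were counted in 5 lists with 57 genes in all, of which 48 (84.2%) were called above 1 FPKM, 7 below it and 2 in neither direction, beside the 52.3% of all genes above it. Their median level was 8.58 FPKM, against 1.79 for all genes tested. Of 14 adaptors and parallel kinases of the cassette 13 lay above and 1 below. The MOB1 adaptors Mob1a and Mob1b, which activate LATS kinases, stood at 10.5 ± 1.38 and 3.52 ± 0.330 FPKM, and the scaffold Sav1, which joins MST to LATS, at 2.37 ± 0.564. Sav1 was lowest in replicate 1, at 1.45 FPKM, and lay between 2.32 and 2.84 in the others. The NDR kinases Stk38 and Stk38l, relatives of LATS, had the highest levels at 36.0 ± 3.28 and 33.4 ± 3.90 FPKM. The lowest were Taok2, a kinase upstream of MST, at 1.65 ± 0.284 and Mink1, which was called below the level at 0.486 ± 0.148.

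Among 14 membrane and junction regulators 11 lay above 1 FPKM, 2 below and 1 neither way. Nf2 (Merlin), which brings LATS to the membrane, stood at 10.5 ± 0.804 FPKM, Amot, an angiomotin that binds YAP, at 12.4 ± 2.29, the junction scaffold Tjp1 at 18.4 ± 3.90 and Rassf1, an MST-binding protein, at 21.7 ± 1.91. The protocadherins Fat4 and Dchs1, a receptor and ligand pair linked to cortical progenitor growth, were the 2 below. Fat4 was listed at 0.344, 0.278, 0.563, 0.573 and 0.572 FPKM and Dchs1 at 0.690, 0.584, 1.08, 0.651 and 0.807, and both were low in replicate 2. The call of Dchs1 was lost with a pseudocount of 0.1 (log2 difference -0.38), with rescaling to a common sum (-0.04) and when replicate 1, 2, 4 or 5 was left out (-0.20 to -0.15).

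The 14 inhibitors of the kinases, mostly members of the STRIPAK phosphatase complex and LIM proteins that bind LATS, had 12 above the level and 1 below. Ppp2r1a, the scaffold of the PP2A phosphatase, which also serves many other complexes, stood at 393 ± 25.6 FPKM and the STRIPAK subunit Mob4 at 97.6 ± 13.2. Strip2 lay below at 0.586 ± 0.231, a call lost after rescaling to a common sum (log2 difference -0.22), and Wtip was called neither way at 0.932 ± 0.340. All 11 genes for retention and decay of YAP and TAZ lay above 1 FPKM, led by the Ywha proteins Ywhae (2185 ± 103) and Ywhaz (673 ± 19.2), phosphoserine-binding proteins with many partners. The lowest of that list were Sfn, the epithelial member of the same family, at 3.39 ± 0.991 and Btrc, a substrate receptor of a ubiquitin ligase, at 12.1 ± 1.06. Sfn was highest in replicates 2 and 3 (4.87 and 3.91 FPKM), which were also highest for the surface ectoderm list, and the part of those cells was not tested. Of the 4 Vgll genes, whose products compete with YAP for TEAD factors or act beside it, Vgll4 alone lay above the level, at 37.0, 50.5, 45.3, 43.3 and 44.4 FPKM. Vgll1 (0.380 ± 0.241) and Vgll3 (0.354 ± 0.144) lay below, and Vgll2 had 0.0375 FPKM in replicate 3 and was listed at 0 elsewhere.

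**Figure D4:**
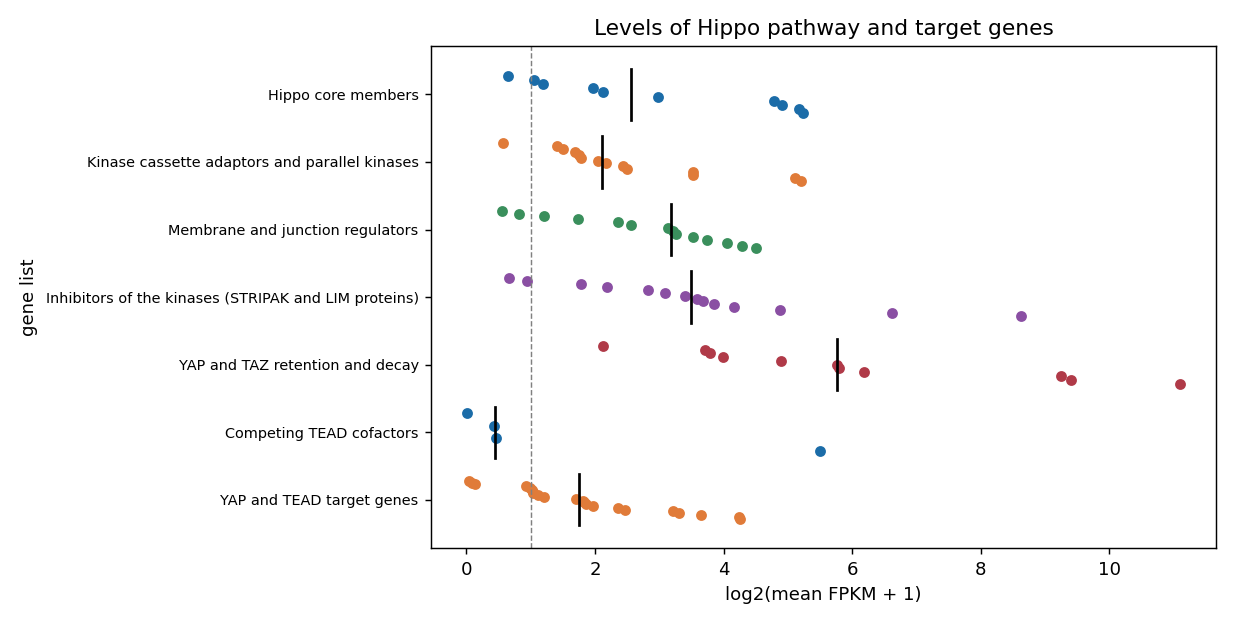
Mean level of each gene as log2(mean FPKM + 1), 1 point per gene, by list, with the list median as a black bar and 1 FPKM as a dashed line. The list for retention and decay of YAP and TAZ has the highest median, 53.1 FPKM, and the 4 competing TEAD cofactors the lowest, 0.367 FPKM.

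Transcripts used elsewhere as readouts of YAP, TAZ and TEAD did not stand at a common level. Of 22 such genes 12 (54.5%) were called above 1 FPKM, 3 were called below and 7 were not called, a share close to the 52.3% of all genes tested, and their median level was 2.38 FPKM. Lats2, one of the 10 core members, and Amotl2, Fjx1 and Ptpn14 of the membrane list are also in this list. The matricellular gene Cyr61 (Ccn1) stood at 14.1, 17.6, 18.3, 19.9 and 19.3 FPKM, a mean of 17.8 ± 2.27, whereas its relative Ctgf (Ccn2) stood at 0.783, 1.03, 1.75, 1.06 and 1.21 FPKM, a mean of 1.17 ± 0.361. Cyr61 lay above the level by 3.23 (SE 0.07, limma adjusted p = 2.59e-09) and Ctgf was called neither way (0.10, SE 0.10, adjusted p = 0.344), or above after rescaling to a common sum (0.28). Replicate 1 was the lowest for both. Asap1, a regulator of Arf GTPases (18.1 ± 4.55), Ccdc80, a matrix protein (11.5 ± 1.13), and Rbms3, an RNA-binding protein (8.86 ± 3.14), were the other 3 of the 4 highest.

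Rbms3 was listed at 5.55, 6.19, 11.1, 8.53 and 12.9 FPKM, and like Tead1 it was lowest in replicates 1 and 2, the libraries lowest for the mesenchyme list, and highest in replicates 3 and 5. In replicate 4 the list was high (median deviation 0.23) and Rbms3 close to its mean (deviation 0.01). The part of mesenchymal cells in the pattern of Rbms3 was not tested. The 3 lowest targets were Ankrd1, a muscle ankyrin repeat protein with 0.140 FPKM in replicate 1 and listed at 0 elsewhere, Myof (0.0625 ± 0.0379) and Foxf2 (0.102 ± 0.0338), all called below 1 FPKM. A single read adds 0.0196 to 0.0270 FPKM to a 2000-base transcript, so levels this low rest on few reads. Foxf2 and Myof were above 0 in every library and Ankrd1 in replicate 1 alone. Differences among these 3 genes were not tested.

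**Figure D5:**
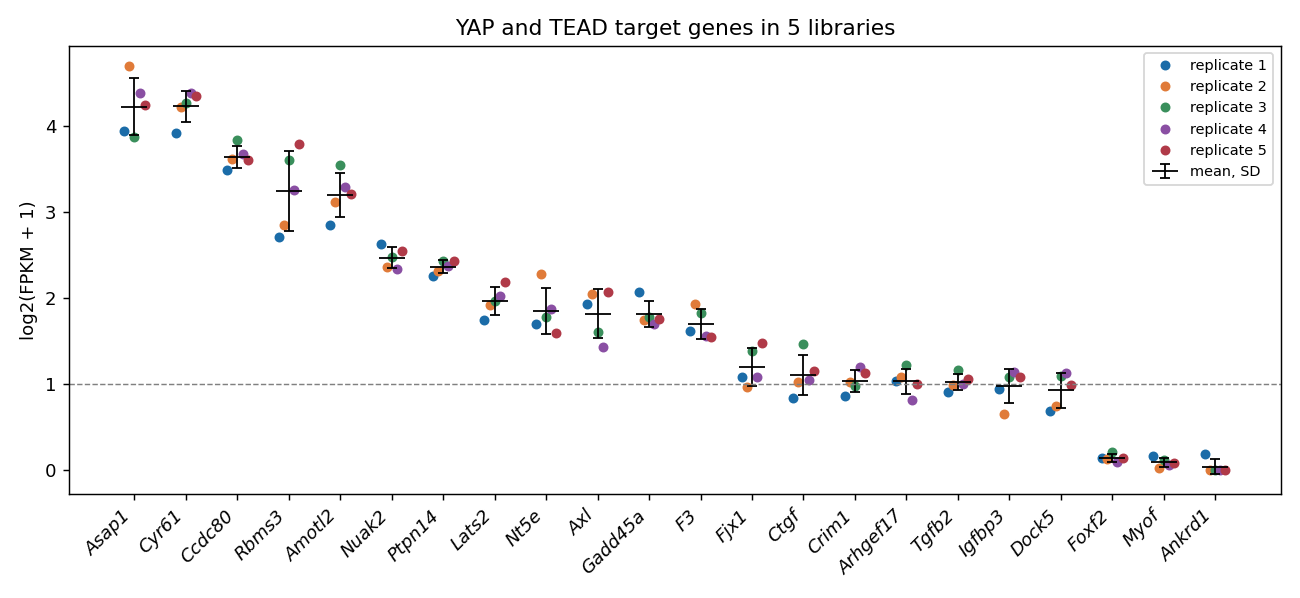
Levels of 22 YAP and TEAD target genes as log2(FPKM + 1), ordered by mean, with 1 coloured point per library, the mean and SD in black and 1 FPKM as a dashed line. Asap1 and Cyr61 lie highest and Ankrd1 and Myof near 0, with Rbms3 spread from 5.55 to 12.9 FPKM.

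TEAD factors bind the sequence GGAATG, which reads as CATTCC on the opposite strand. In the 250 bases before each annotated start (RefSeq, GRCm38.p6, the assembly named mm10), the motif was present on either strand in 12.6% of 32851 windows, or for 14.4% of 27025 genes. Of the members 7 of 10 had a window, and 3 of these 7 held the motif in any window: Yap1, Wwtr1 and Tead3. Some genes have more than a single window, and the Tead3 window at chr17:28350347-28350596 held no motif. Of the target genes 15 of 22 had a window and 6 held it: Cyr61, Ankrd1, Axl, Amotl2, Crim1 and Ptpn14. The windows of Yap1 and Wwtr1, the pair that differed over 29-fold in level, and of Cyr61 and Ankrd1, a high and a nearly undetected target, are shown with the motif in capitals, each 5′ to 3′ on the strand of its gene. They lie at chr9:8004597-8004846, chr3:57575911-57576160, chr3:145649986-145650235 and chr19:36119845-36120094, all on the minus strand.
Yap1: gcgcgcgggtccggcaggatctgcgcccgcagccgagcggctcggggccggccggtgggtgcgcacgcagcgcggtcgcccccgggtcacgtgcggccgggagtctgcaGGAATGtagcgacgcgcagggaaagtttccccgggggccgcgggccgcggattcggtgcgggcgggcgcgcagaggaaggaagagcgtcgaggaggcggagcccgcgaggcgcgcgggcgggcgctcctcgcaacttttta
Wwtr1: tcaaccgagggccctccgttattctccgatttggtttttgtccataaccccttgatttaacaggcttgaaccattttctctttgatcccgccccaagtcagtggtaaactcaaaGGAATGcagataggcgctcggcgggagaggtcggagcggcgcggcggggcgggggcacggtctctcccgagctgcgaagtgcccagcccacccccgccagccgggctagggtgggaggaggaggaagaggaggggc
Cyr61: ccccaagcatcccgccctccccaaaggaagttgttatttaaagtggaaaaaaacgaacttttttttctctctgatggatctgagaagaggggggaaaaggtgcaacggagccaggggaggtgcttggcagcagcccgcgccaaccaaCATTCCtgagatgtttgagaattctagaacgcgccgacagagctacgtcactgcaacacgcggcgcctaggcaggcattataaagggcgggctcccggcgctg
Ankrd1: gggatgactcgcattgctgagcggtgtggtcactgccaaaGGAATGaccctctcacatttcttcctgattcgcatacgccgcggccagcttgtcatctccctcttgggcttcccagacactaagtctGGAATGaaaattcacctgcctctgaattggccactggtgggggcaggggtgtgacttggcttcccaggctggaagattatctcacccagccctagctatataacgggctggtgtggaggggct
The motif ended 135 bases before the start of Yap1, 130 before the Wwtr1 start shown and 97 before that of Cyr61, where it lies on the opposite strand. Ankrd1 held it 204 and 117 bases before its start. Wwtr1 has another annotated start, with a window at chr3:57575877-57576126 that is not shown, and the motif ended 164 bases before it. The genes shown were among those that hold the motif, so its presence in both genes of each pair says nothing about level. The letters are a description of the sequence and not of binding.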

How the data were processed

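RNA-seq libraries of 5 replicates of mouse neuroepithelial cells were analysed. Per the labels' protocols, cDNA was made from poly-dT primers with template switching, amplified, sheared and sequenced as single-end reads of 75 bases, on average 35 M reads per sample. No molecular identifiers and no strand are described, so PCR copies and antisense reads could not be told apart. The authors deposited 1 table of FPKM per gene and library. Build mm10 and the tools Cuffdiff 2.2.1, TopHat2 2.0.11, cutadapt and CASAVA 1.8 come from the submitters' processing notes, which state neither their roles here nor their order. The annotation release is not given in the sources used here.

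Tests used log2(FPKM + 1), a scale that understates differences between low genes. An intercept with a variance trend was fitted by limma 3.58.1 (R 4.3.3) to the 19706 genes with any value above 0 and tested, two-sided, against 1 and 10 FPKM, with Benjamini-Hochberg adjustment over all genes and a threshold of 0.05. The fit was also run on simulated data with independent normal noise on the log scale, and the outcome is not reported here. A further 2095 genes were listed at 0 in every library. Differences between family members (9 pairs) were tested within libraries by flipping signs exactly (permutation test over 32 sign patterns, two-sided). Read totals were implied from single-transcript genes longer than 800 bases and under 0.15 FPKM, after taking 200 bases off each length, and depth limits cover counting error only. Gene positions and transcripts came from GENCODE M21, and 1 result of the comparison of transcripts is not reported here. Values not shown per library are the mean ± SD over 5 libraries.

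The members, lists and tests were chosen with earlier results of these data known. Named genes were the 10 members, the 2 highest and 2 lowest of each pathway list, 8 genes chosen by name (Sav1, Mob1a, Mob1b, Nf2, Fat4, Dchs1, Amot and Vgll4), the 4 highest and 3 lowest targets with Ctgf, Cyr61 and Ankrd1, and the 3 nearest patterns of Yap1, Wwtr1 and Tead2. Alternatives were pseudocounts of 0.5 and 0.1, rescaling by sum or by median ratio, other levels (0.5 and 2, or 5 and 20 FPKM), dropping genes averaging under 0.1 FPKM, limma without the trend or with robust variance, and leaving out each replicate.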

Additional observations from a re-analysis of the deposited data

Results flagged for a closer look

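Of 62 values checked over the 5 libraries (43 genes, 10 shares and 9 pair differences), 6 had 1 library far from the other 4 by Dixon's ratio. For independent, normally distributed values chance gives this in about 1 in 20. That rate does not apply to a gene at 0 in 4 libraries, where the ratio is fixed. The values checked also overlap, since a share repeats the level of its gene. Lats1 was at 4.19 FPKM in replicate 3 against at most 3.21 in the others. Tead4 was at 0.851 FPKM in replicate 5, the next library being at 0.560, and its share of the TEAD family was 1.69% there against at most 1.20%. Mink1 was at 0.740 FPKM in replicate 5, next to 0.479. Ankrd1 was listed at 0.140 FPKM in replicate 1 and Vgll2 at 0.0375 in replicate 3, each at 0 in the other libraries.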

How the results depend on the processing

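The 9 differences between family members kept their sign under pseudocounts of 0.5 and 0.1, both rescalings and the removal of each replicate. Only Lats1 minus Lats2 could have changed sign, since every other pair had 1 direction in 5 of 5 libraries. It ran from 0.09 without replicate 3 to 0.23 without replicate 5. A share within a library cannot change under rescaling by sum. The removal of each replicate moved the 10 shares by less than 1 SD, a limit that dropping 1 of 5 values cannot exceed. The libraries' FPKM sums lay at -0.42 to -0.24 from 1000000 on the log2 scale, and rescaling to that sum raised FPKM by as much. Of 737 values of single genes under an alternative, 705 kept their call, 15 lost it, 15 gained one and 2 took the opposite call. The difference changed sign in 10: against 0.5 FPKM in Dchs1 (0.23), Strip2 (0.069), Tead4 (0.059) and Wtip (0.35), against 2 FPKM in Taok2 (-0.19), Ctgf (-0.48), Tead3 (-0.40) and Wwtr1 (-0.53), against 5 in place of 10 FPKM in Tead1 (0.36), and after rescaling by sum in Wtip (0.096). At the level of 0.5 FPKM 0 members were called below and 19 target genes were called above, with 2 pathway genes below. At 2 FPKM 3 members and 10 target genes were called below. Moving the level moves the calls of all genes, and the shares of all genes at these 2 levels are not given here. These counts therefore say nothing particular about the members, targets or pathway genes. With genes averaging under 0.1 FPKM dropped, 1 target was called below, since Ankrd1 and Myof were no longer tested. No paired analysis was possible because the series has 1 group, so no library has a partner in another group. Levels near that of 1 read are limited by depth.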
